A study of Mus musculus with 9 samples.

Results

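The gene-level liver transcriptome of alcohol-fed mice (AF group) was compared with that of pair-fed mice (PF group), with 3 libraries in each group. All mice were C57BL/6 animals of 8 weeks, male and of the C57BL/6J substrain per the study's methods, that received a liquid diet for 5 weeks, the PF group an isocaloric control diet and the AF group the Lieber-DeCarli ethanol diet, and both groups were fasted before the liver was taken. RNA was depleted of ribosomal RNA, and strand-specific libraries were sequenced from both ends. Levels are in FPKM, that is sequenced fragments scaled to the length of the transcript and to the depth of the library. The gene entries described here carried a known transcript and a gene name and averaged 2 FPKM or more across the 6 libraries, which was the case for 7389 of the 52151 entries of the table. Of these, 6749 held at least 1 protein-coding gene and 640 held none, so that the set is not made of coding genes alone. Transcripts of 2 or more coding genes were merged in 290 entries, and those described below are named with the genes they hold. The 75 entries of the cytochrome P450 and Mup families are counted but not described, which left 7314.

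The liver oxidizes ethanol, mainly by alcohol dehydrogenases and then aldehyde dehydrogenases, and the electrons released shift the balance of NADH in the hepatocyte. The hepatocyte also makes most plasma proteins, cholesterol and bile acids, and it makes foreign compounds water-soluble by oxidation and then by conjugation with glutathione, glucuronic acid or sulfate before membrane pumps export them. Many mouse liver genes are expressed at unequal levels in males and females under the control of growth hormone secretion. Prolonged ethanol feeding is known to cause fat storage in the hepatocyte and oxidative stress.

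In the marker lists, 10 of 10 hepatocyte markers were present, with a summed level of 22312 to 27340 FPKM in PF against 21456 to 29395 FPKM in AF. Of the 10, 0 passed the threshold given below (limma, 1 with an unadjusted p under 0.05), and 1 was downregulated without AF replicate 1. Of the neutrophil and lymphocyte markers, 0 reached the mean of 0.5 FPKM needed to enter the test. The 12 Kupffer cell and macrophage markers in the fit summed to 119 to 151 FPKM in PF against 107 to 212 FPKM in AF. Of the 10 with a mean of 2 FPKM or more, 0 passed the threshold (2 downregulated without AF replicate 2, 1 upregulated without AF replicate 3), and their median log2 FC was -0.06, from -0.85 for C1qc, -0.64 for Clec4f and -0.52 for Vsig4 to 0.78 for Lyz2. Below that level, 1 of 2 passed, Marco, with a mean of 0.803 FPKM in PF against 1.91 FPKM in AF (log2 FC 1.25). The 11 stellate cell markers in the fit summed to 38.8 to 43.2 FPKM and 33.0 to 48.2 FPKM. Sinusoidal endothelial markers summed to 41.9 to 51.7 FPKM in PF against 51.4 to 70.6 FPKM in AF, with 0 of 10 past the threshold (1 upregulated without PF replicate 2 or AF replicate 2) and 3 higher in AF at an unadjusted p under 0.05. Of 6 cholangiocyte markers 2 entered the fit, with sums of 2.77 to 3.89 FPKM in PF against 4.33 to 8.05 FPKM in AF that did not overlap. One of them, Spp1, the osteopontin gene, averaged 2 FPKM or more and did not pass (log2 FC 0.94, unadjusted p = 0.0179, limma), except without PF replicate 1 or AF replicate 1. Of 8 pancreas and adipose markers only Cela1, an elastase gene, entered the fit, with 5.47 to 6.91 FPKM in PF against 2.25 to 4.29 FPKM in AF (log2 FC -0.86), and it was downregulated without AF replicate 2. In bulk tissue, fewer cells of a type and less RNA per cell cannot be told apart. Some libraries stood apart. AF replicate 2 held 37 entries more than 2 times above, and 52 more than 2 times below, the level in each other library (as FPKM + 1), against at most 14 and 36 in the rest. AF replicate 3 held a summed FPKM of 9433 in transcripts inside introns, against 3254 to 4937 in the others, and listed Rn7s1 and Rn7s2, copies of the 7SL RNA, at 11490 and 11452 FPKM, while the other 5 libraries listed both at 0. PF replicate 1 and AF replicate 2 were also the libraries with the highest levels of several acute phase genes, given with that list. What part these differences between libraries have in the results was not tested.

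An entry was called upregulated or downregulated at the threshold of the study's methods, that is with an unadjusted p below 0.05 and a log2 FC, the log2 of mean AF over mean PF FPKM, above 1 or below -1. The study states this threshold for lncRNAs tested with the Ballgown package, whereas the p here came from limma on log2(FPKM + 1). Since the labels number the libraries but name no animal, p-values measure the spread between these samples, which may be technical, and an exact two-sided permutation test of 3 against 3 could not go below 0.1. Over all 12268 fitted entries, 4.3% were called, 1.95% upregulated and 2.35% downregulated, and 0.326% had an adjusted p under 0.05. Of the 7389 entries described here, 932 had an unadjusted p under 0.05 (limma), 400 higher and 532 lower in AF. This is the background for counts at that p in lists and terms. Of the same 7389 entries, 273 were called (3.69%), of which 127 were upregulated (1.72%) and 146 downregulated (1.98%). An adjusted p under 0.05 was reached by 36 of them (0.487%), 19 upregulated and 17 downregulated, a count that was 21 when PF replicate 3 or AF replicate 1 was left out and 23 when PF replicate 2 was. It was 65 with all 9 libraries of the series in the fit, 22 with no minimum level and 17 with the replicate number as a block. It was 0 with a library-size covariate and no moderation (linear model, 906 at an unadjusted p under 0.05). In 1450 entries (19.6%) the 2 groups had no overlap. Outside the P450 and Mup families, 241 of 7314 entries were called (3.3%), 109 upregulated and 132 downregulated, and in 203 of the 241 the groups did not overlap. Most changes were moderate, with 187 of the 241 at a log2 FC between 1 and 2 in size and 54 beyond 2. By level, 3.19% of the entries between 2 and 5 FPKM were called, 2.61% of those between 5 and 20 FPKM, 5.52% of those between 20 and 100 FPKM and 6.6% of those of 100 FPKM and more. Leaving out AF replicate 3 gave 140 upregulated and 215 downregulated entries, leaving out AF replicate 2 gave 109 and 118, and leaving out PF replicate 1 gave 133 and 109. With each library scaled to the same median, the split was 119 upregulated and 123 downregulated. Single calls were less stable than these counts. Of the 241 entries, 121 kept their call under each of 8 alternatives (the 6 left-out libraries, the same median and the replicate block), 120 lost it under at least 1 and 0 changed the sign of the fitted difference. Of the entries named below, C9, Cenpb, Eif2ak2, F11, Fabp1, Fth1, Gclc, Hamp, Htatip2, Jun, Klf6, Me1, Plin5, Sdf2l1, Selenop, Slc10a2 and Tat lost the call under 4 or more of the 8, and Apoa4, Cldn2, Elovl5, Fmo2, Gdf15, Ghr, Hmgcs1, Hsd11b1, Hspa5, Irgm2, Sds, Slc22a7, Srxn1 and Zfp36l2 under 1 to 3.

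**Figure D1:**
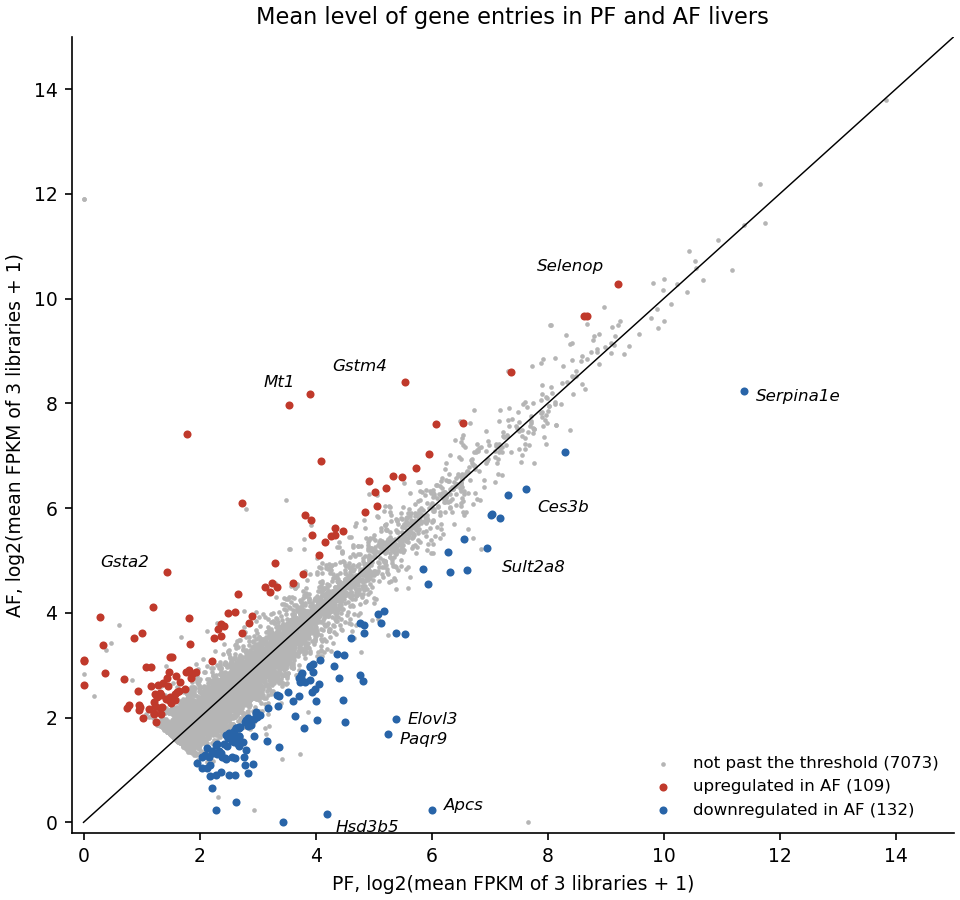
Mean level of the 7314 gene entries outside the P450 and Mup families in PF (horizontal axis) and AF (vertical axis), both as log2 of the mean FPKM of 3 libraries plus 1, with the diagonal of equal levels. The 109 upregulated entries (red) lie above the diagonal and the 132 downregulated entries (blue) below it, while most entries (grey) follow it, and Apcs and Hsd3b5 lie near 0 in AF.

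Apcs and Hsd3b5 had the lowest log2 FCs among the falls with a mean AF level above 0. Apcs encodes serum amyloid P component, a pentraxin that the liver secretes into plasma. It had 104, 43.1 and 43.2 FPKM in PF against 0.05, 0.48 and 0 FPKM in AF. No AF library reached even 1 FPKM, and the log2 FC was -8.49 (fitted difference on log2(FPKM + 1) of -5.67, standard error 0.37, adjusted p = 0.00397, limma), and -11.31 without AF replicate 2. Hsd3b5, a 3-ketosteroid reductase of the male mouse liver, had 11.1, 27.6 and 13.3 FPKM in PF against 0.06, 0.17 and 0.13 FPKM in AF, a log2 FC of -7.17 (adjusted p = 0.00766, limma). The related entry Hsd3b3, which merges Hsd3b2 and Hsd3b3, had 6.38, 6.74 and 6.58 FPKM in PF against 1.22, 0.63 and 1.66 FPKM in AF, a log2 FC of -2.49 (adjusted p = 0.0214, limma). The PF libraries of Hsd3b3 lay close together, and all AF libraries lay well under them. Hist1h2bg, an H2B histone gene, had PF levels of 10.9, 9.37 and 9.33 FPKM, against 3 AF libraries in which it was listed at 0 (limma, adjusted p = 0.000358). Other entries were also listed at 0 in a whole group or in single libraries, between 31 and 42 entries per library, so that a 0 in these files is not read as absence of the RNA.

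Elovl3, an elongase of very long chain fatty acids, was downregulated from 51.7, 42.5 and 28.0 FPKM to 2.33, 3.99 and 2.46 FPKM, a log2 FC of -3.80 (adjusted p = 0.0073, limma). Paqr9, a membrane protein of the progestin and adiponectin receptor family, had 45.4, 26.7 and 39.5 FPKM in PF against 0.26, 6.12 and 0.32 FPKM in AF (log2 FC -4.06, adjusted p = 0.104, limma), with AF replicate 2 above the other AF libraries and a log2 FC of -7.00 without it. Of the serpin genes, which encode protease inhibitors and related plasma proteins, 4 entries were among the 15 largest falls. Serpina1e, of the alpha-1-antitrypsin group, had 2319, 4221 and 1520 FPKM in PF against 149, 568 and 185 FPKM in AF (log2 FC -3.16, -4.01 without AF replicate 2, adjusted p = 0.11, limma), and had the highest mean level of the 241 called entries outside the P450 and Mup families. Serpina12, which encodes vaspin, had a log2 FC of -2.42, Serpina7, which encodes thyroxine-binding globulin, one of -2.41, and the pseudogene Serpina4-ps1 one of -2.39. In Serpina4-ps1, AF replicate 2 had 5.58 FPKM against 1.3 and 0.58 FPKM in the other AF libraries, and the log2 FC was -3.79 without it. Reads can be shared between close relatives such as the Serpina1, Hsd3b, Gsta, Gstm and Ces3 genes, so the split within each of these families is uncertain. The other entries among the 15 largest falls were Gm45724 (log2 FC -2.98), the pseudogene Adh6-ps1 (-2.74), the small nuclear RNA Gm23686 (-2.64), Nrep (-2.56) and Stard4 (-2.46), which is described with the cholesterol genes. Single libraries moved some of these values. Leaving out AF replicate 3 gave -4.31 for Gm45724 and -3.68 for Adh6-ps1. For Nrep, leaving out AF replicate 1 gave -3.84 and leaving out PF replicate 2 gave -1.81.

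Other falls with an adjusted p under 0.05 were smaller. Sult2a8, a sulfotransferase of the liver, had 110, 129 and 129 FPKM in PF against 41.9, 31.1 and 37.2 FPKM in AF, a log2 FC of -1.74 (adjusted p = 0.0134, limma). Aox3, an aldehyde oxidase, averaged 60.0 ± 6.04 FPKM in PF against 22.5 ± 0.866 FPKM in AF (SD, n = 3 each), with a log2 FC of -1.42 (adjusted p = 0.0141, limma). The entry Ces3b, which merges the carboxylesterases Ces3a and Ces3b, averaged 196 ± 5.14 FPKM against 81.7 ± 11.5 FPKM (SD, n = 3 each), with a log2 FC of -1.26 (adjusted p = 0.0363, limma). Col5a3, a chain of a fibrillar collagen, had 7.51, 4.68 and 5.39 FPKM in PF against 0.86, 1.20 and 1.38 FPKM in AF (log2 FC -2.35, adjusted p = 0.0283, limma). None of the AF values of these 4 entries reached the lowest PF value. The non-coding entries 1810019D21Rik, C730036E19Rik and RP23-309H21.1, with log2 FCs of -1.34, -1.29 and -1.06, each had an adjusted p of 0.0283 (limma).

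Among the largest rises, genes of metal binding, glutathione conjugation and export stood beside genes of other kinds. Abcc4, a basolateral efflux pump for conjugates and bile acids, had 0.31, 0.32 and 0.25 FPKM in PF against 7.43, 6.12 and 5.04 FPKM in AF, a log2 FC of 4.40 (fitted difference 2.46, standard error 0.15, adjusted p = 0.00293, limma). Its relative Abcc3 was already expressed in PF, at 30.6, 29.8 and 27.5 FPKM, and rose to 107, 80.8 and 84.2 FPKM (log2 FC 1.63, adjusted p = 0.0143, limma). In both pumps the spread within a group was small against the distance between the groups. Lepr, the leptin receptor, had 0.43, 1.35 and 1.26 FPKM in PF against 16.1, 11.6 and 5.90 FPKM in AF (log2 FC 3.46, adjusted p = 0.0716, limma). Adam11, a membrane protein of the disintegrin family, averaged 0.823 ± 0.411 FPKM in PF against 10.5 ± 1.37 FPKM in AF (SD, n = 3 each, log2 FC 3.68, adjusted p = 0.0073, limma). Irf2bp1, which encodes a corepressor bound by IRF2, was listed at 0 in PF, against 5.55, 4.32 and 5.67 FPKM in AF (adjusted p = 0.00215, limma).
Several non-coding entries were in the same group. Snord17, a small nucleolar RNA, had 0, 4.45 and 2.86 FPKM in PF against 142, 179 and 186 FPKM in AF (log2 FC 6.12, 6.89 without PF replicate 2, adjusted p = 0.0191, limma), and Gm38357 was listed at 0 in PF, against 10.5, 4.14 and 7.97 FPKM in AF (adjusted p = 0.0141, limma). The entries Gm6614 (log2 FC 5.20) and Gm25890, a small nuclear RNA (log2 FC 3.56), had no transcript matched to a coding gene either. In Gm6614, AF replicate 2 had 18.95 FPKM against 4.09 and 5.27 FPKM in the other AF libraries, and the log2 FC was 4.19 without it and 5.88 without PF replicate 2. Gm25890 was listed at 0 in PF replicates 1 and 3, and its log2 FC was 2.98 without either. In the study's qRT-PCR of PF and AF livers the change of Gm38357 was reversed, while Gm45724, given above, was lower in AF there too. For Cenpb, an entry that merges the centromere protein gene Cenpb with Spef1, AF replicate 1 lay at 0.92 FPKM, near the PF libraries at 0.47 to 0.77 FPKM, while AF replicates 2 and 3 were at 8.26 and 7.81 FPKM (log2 FC 3.18, adjusted p = 0.357, limma). Smaller rises with an adjusted p under 0.05 were those of Aldh5a1, the succinate semialdehyde dehydrogenase, from a mean of 4.17 ± 0.251 FPKM to 10.7 ± 1.85 FPKM (limma, log2 FC 1.37, adjusted p = 0.0458), and of Slc48a1, a heme transporter, from 9.05 ± 0.895 FPKM to 21.6 ± 2.70 FPKM (log2 FC 1.26, adjusted p = 0.0392, limma, SD, n = 3 each).

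**Figure D2:**
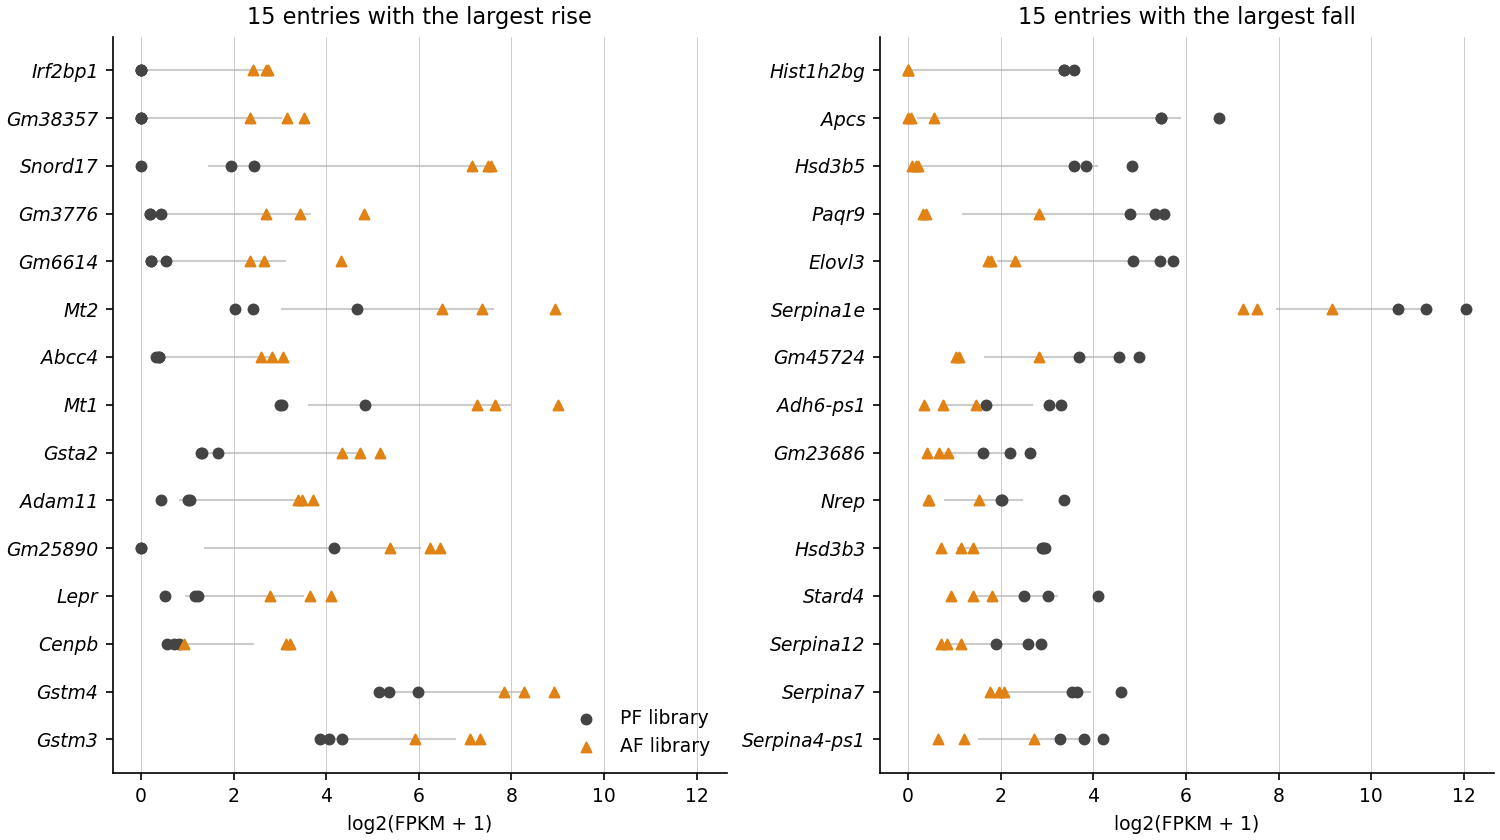
Level of each library, as log2(FPKM + 1), for the 15 entries with the largest rise (left) and the 15 with the largest fall (right), with PF libraries as dark circles, AF libraries as orange triangles and a line that joins the group means of these log values. The groups were required not to overlap, and the AF libraries spread widely in Mt1, Mt2 and Paqr9 and lie close together in Abcc4, Adam11 and Elovl3.

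Mt1 and Mt2 encode metallothioneins, small proteins that bind zinc and copper and are induced by metals and glucocorticoids through their promoters. They are neighbours on chromosome 8 and moved together. Mt1 had 27.8, 7.30 and 6.98 FPKM in PF against 198, 512 and 151 FPKM in AF (log2 FC 4.36, adjusted p = 0.0774, limma). Mt2 had 24.4, 4.36 and 3.08 FPKM in PF against 163, 493 and 89.6 FPKM in AF (log2 FC 4.55, adjusted p = 0.12, limma). In both genes PF replicate 1 was the highest PF library and AF replicate 2 the highest AF library, and the groups did not overlap. Without PF replicate 1 the log2 FCs of Mt1 and Mt2 were 5.33 and 6.06, and without AF replicate 2 they were 3.64 and 3.58. Their promoter windows of 300 bases around the annotated start (RefSeq, GRCm38.p6, plus strand) are shown because the 2 genes rose side by side, with the core of the metal response element in capitals. The core was searched as TGCACNC and TGCGCNC on both strands.
Mt1, chr8:94178839-94179138: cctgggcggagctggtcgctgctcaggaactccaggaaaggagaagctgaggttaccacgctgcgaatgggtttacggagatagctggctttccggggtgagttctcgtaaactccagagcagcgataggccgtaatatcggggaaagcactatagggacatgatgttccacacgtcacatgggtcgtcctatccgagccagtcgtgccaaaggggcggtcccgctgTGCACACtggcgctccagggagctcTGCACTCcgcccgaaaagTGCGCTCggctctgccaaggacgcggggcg
Mt2, chr8:94172368-94172667: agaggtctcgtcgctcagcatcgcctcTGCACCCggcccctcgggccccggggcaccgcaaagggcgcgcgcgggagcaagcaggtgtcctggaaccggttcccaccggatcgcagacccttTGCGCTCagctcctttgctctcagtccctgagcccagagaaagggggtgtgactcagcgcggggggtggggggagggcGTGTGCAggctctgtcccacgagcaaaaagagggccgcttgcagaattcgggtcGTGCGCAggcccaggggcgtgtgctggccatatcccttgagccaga
The window of Mt1 held 3 matches, all on the plus strand, and that of Mt2 held 4, with 2 on each strand. Such a short core is frequent, present in 25.5% of the 27025 promoters of the table, in 36.1% of the 5249 found for entries outside the P450 and Mup families, in 37.9% of the 66 found for upregulated entries and in 26.3% of the 95 found for downregulated entries. Slc39a4, an importer of zinc, was also upregulated, from 5.78, 3.24 and 3.52 FPKM to 13.4, 9.91 and 15.3 FPKM (log2 FC 1.62, adjusted p = 0.0999, limma).

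The list of glutathione transferases, enzymes that join glutathione to reactive compounds, had 7 of 18 entries called, all upregulated. Its median log2 FC was 0.51, against -0.03 over all 7389 entries. Gsta2 had 1.46, 1.48 and 2.15 FPKM in PF against 34.6, 19.2 and 25.4 FPKM in AF (log2 FC 3.96, adjusted p = 0.00515, limma). The entry Gstm4, which holds Gstm1 and Gstm4, had 34.5, 40.2 and 62.1 FPKM in PF against 483, 308 and 229 FPKM in AF (log2 FC 2.90, adjusted p = 0.0328, limma). In both, the lowest AF library lay several times above the highest PF library. Gm3776, an entry that holds Gsta1, had a log2 FC of 6.03 from a PF level under 0.5 FPKM (5.15 without AF replicate 1), and Gstm3, which holds Gstm3 and Gstm6, one of 2.88. Mgst3 (log2 FC 2.46), Gsta4 (2.12) and Gstm2 (1.13) were the other 3. With any library left out, 7 or 8 entries of this list were upregulated and 0 downregulated.
Of 15 antioxidant genes under the control of the transcription factor NRF2, 5 were upregulated and 1 was downregulated, with a median log2 FC of 0.55. Beside Abcc4 these were Nqo1, the quinone reductase (2.23, 1.26 and 1.84 FPKM in PF against 10.1, 4.94 and 4.09 FPKM in AF, log2 FC 1.84), Srxn1, which repairs peroxiredoxins (2.47-fold), Gclc, the catalytic subunit of glutathione synthesis (log2 FC 1.03), and Fth1, the ferritin heavy chain (2.01-fold). Me1, the malic enzyme that also supplies NADPH for fatty acid synthesis, was the member that fell (log2 FC -1.04). The count of upregulated entries was 3 without PF replicate 2, PF replicate 3, AF replicate 2 or AF replicate 3, and that of downregulated entries was 0 without PF replicate 1 or AF replicate 1 and 2 without AF replicate 3.

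In the list of glucuronidation, sulfation and ester hydrolysis, 8 of 31 entries were upregulated and 4 downregulated. The list also holds enzymes of other kinds, among them Ephx1 and Fmo2. Ephx1, the microsomal epoxide hydrolase, had 74.5, 68.9 and 55.6 FPKM in PF against 254, 126 and 203 FPKM in AF (log2 FC 1.55, adjusted p = 0.117, limma). Fmo2 (log2 FC 1.76), a flavin monooxygenase, the sulfotransferase Sult1d1 (2.47-fold) and the carboxylesterase Ces2a (log2 FC 1.29) were other upregulated members. Sult2a8 and Ces3b fell, as given above, and so did Sult1b1 (log2 FC -1.39) and Ugt3a1 (log2 FC -1.24), so that sulfotransferases and carboxylesterases moved in both directions. With 1 library left out, 5 to 8 entries of the list were upregulated and 4 or 5 downregulated. In the list of electron supply and heme for monooxygenases 0 of 15 entries passed (limma), and 3 had an unadjusted p under 0.05, among them Por, the reductase that serves the P450 enzymes, with 68.1, 117 and 87.8 FPKM in PF against 191, 174 and 121 FPKM in AF (log2 FC 0.83). Leaving out PF replicate 1 or PF replicate 2 gave 1 upregulated entry, and leaving out AF replicate 2 or AF replicate 3 gave 2.

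Of 12 genes known to be expressed at a higher level in male than in female mouse liver, 5 were downregulated and 0 upregulated, and the median log2 FC was -1.70. Beside Hsd3b5 and Elovl3 these were C6, a complement component (28.2, 36.3 and 17.2 FPKM in PF against 2.98, 10.2 and 3.29 FPKM in AF, log2 FC -2.31), Slco1a1, an uptake carrier of organic anions (34.8, 53.9 and 47.7 FPKM in PF against 5.54, 16.9 and 10.6 FPKM in AF, log2 FC -2.04), and Keg1 (log2 FC -1.76). In the 5 genes no AF library reached the lowest PF library. The count of 5 stood with any library left out. Moxd1 had 0.81, 19.0 and 0.29 FPKM in PF against 0, 0.51 and 0.01 FPKM in AF, and Selenbp2 had 7.50, 61.8 and 10.8 FPKM in PF against 10.7, 6.79 and 8.15 FPKM in AF. For both, PF replicate 2 was far above the other libraries and the threshold was not passed. Of 13 listed genes higher in females, 6 entered the fit, of which 3 were upregulated and 0 downregulated. With a mean of 2 FPKM or more there were 3 entries, with a median log2 FC of 1.20. Of these 1, Fmo2, was upregulated, a count that was 0 without PF replicate 1 and 2 without PF replicate 3. In the growth hormone and IGF axis 2 of 13 entries were downregulated, Ghr, the growth hormone receptor (17.4, 14.0 and 12.4 FPKM in PF against 5.73, 4.47 and 11.2 FPKM in AF, log2 FC -1.03), and Onecut1, a hepatocyte transcription factor (3.64, 2.25 and 6.71 FPKM in PF against 1.58, 1.19 and 1.31 FPKM in AF, log2 FC -1.63). Onecut1 kept its call with any library left out and Ghr did not without PF replicate 1, AF replicate 1 or AF replicate 2. Leaving out AF replicate 3 gave 1 upregulated entry, and the median of that list was -0.03, as over all entries.

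In cholesterol synthesis and uptake 5 of 27 entries were downregulated and 0 upregulated, and 10 were lower and 0 higher in AF at an unadjusted p under 0.05. Of all 7389 entries, 532 were lower and 400 higher at that p. The median log2 FC of the list was -0.65. Nsdhl, an enzyme of the late sterol pathway, had 27.1, 17.7 and 15.4 FPKM in PF against 6.78, 4.93 and 5.44 FPKM in AF (log2 FC -1.81, adjusted p = 0.0677, limma). Stard4, a carrier of cholesterol between membranes, had 7.15, 16.2 and 4.66 FPKM in PF against 1.65, 0.90 and 2.54 FPKM in AF (log2 FC -2.46, -1.80 without PF replicate 2, adjusted p = 0.201, limma). Msmo1, a sterol demethylating oxidase, had 17.6, 20.8 and 8.66 FPKM in PF against 3.01, 4.48 and 8.23 FPKM in AF (log2 FC -1.58). In Msmo1, AF replicate 3 was close to PF replicate 3. Hmgcs1, which forms HMG-CoA, was also downregulated (log2 FC -1.37). Without AF replicate 3 the count of downregulated entries was 11, without PF replicate 3 it was 9, and with another library left out it was between 4 and 6. Leaving out AF replicate 1 gave 1 upregulated entry.
The promoter of Hmgcs1 is shown for the sterol regulatory element, the site of SREBP factors, searched as TCACNCCAC on both strands (RefSeq, GRCm38.p6, plus strand, 300 bases around the annotated start, the match in capitals).
Hmgcs1, chr13:119690101-119690400: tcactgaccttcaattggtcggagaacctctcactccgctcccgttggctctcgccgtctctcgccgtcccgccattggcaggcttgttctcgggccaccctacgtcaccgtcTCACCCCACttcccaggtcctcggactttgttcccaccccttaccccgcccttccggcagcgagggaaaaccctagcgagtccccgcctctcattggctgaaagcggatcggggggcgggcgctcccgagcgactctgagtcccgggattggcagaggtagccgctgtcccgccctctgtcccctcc
Its window held 1 match. The motif was present in 1.22% of all 27025 promoters of the table and in 1 of the 17 found for the list, that of Hmgcs1, and in 3 of the 95 found for downregulated entries.

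In fatty acid synthesis, elongation and desaturation 4 of 17 entries were downregulated and 0 upregulated. Besides Elovl3 and Me1 these were Elovl5, an elongase of polyunsaturated fatty acids (86.3, 132 and 214 FPKM in PF against 38.1, 51.0 and 76.8 FPKM in AF, log2 FC -1.38), and Fads2, a desaturase of the same pathway (257, 312 and 374 FPKM in PF against 137, 109 and 153 FPKM in AF, log2 FC -1.24, adjusted p = 0.105, limma). The groups of both did not overlap. The genes of de novo synthesis did not pass, with a log2 FC of -0.12 for Fasn, the fatty acid synthase, and of 0.23 for Acaca, the acetyl-CoA carboxylase. Scd1, the stearoyl-CoA desaturase, had 507 to 2623 FPKM in PF against 1078 to 1634 FPKM in AF (log2 FC -0.33) and did not pass. Leaving out PF replicate 3 gave 2 downregulated entries, and leaving out any other library gave 3 to 6.
Of 36 entries of fatty acid oxidation and ketogenesis, 1 was downregulated, Fabp1, the liver fatty acid binding protein (91.4, 49.4 and 90.5 FPKM in PF against 20.6, 24.6 and 59.7 FPKM in AF, log2 FC -1.14), in which the groups overlapped. The count of downregulated entries was 0 without PF replicate 1, PF replicate 3, AF replicate 1 or AF replicate 2, and that of upregulated entries was 1 without PF replicate 2, AF replicate 2 or AF replicate 3 and 2 without PF replicate 3 or AF replicate 1. At an unadjusted p under 0.05, 7 entries were lower and 1 was higher in AF, against 532 and 400 of all 7389 entries. The median log2 FC of the list was -0.11. AF replicate 2 stood alone in some of these genes. Ehhadh, the peroxisomal bifunctional enzyme, had 6.41, 91.0 and 11.6 FPKM in AF, and Pdk4, the kinase that blocks pyruvate oxidation, had 0.76, 24.0 and 1.67 FPKM, against at most 20.4 and 0.40 FPKM in PF, and neither passed the threshold. Of 20 entries of triglyceride storage, 1 was upregulated, Plin5, an entry that merges the lipid droplet proteins Plin4 and Plin5 (log2 FC 1.01), with overlapping groups, and the count was 0 without AF replicate 2 or AF replicate 3 and 2 without AF replicate 1. Leaving out PF replicate 3 or AF replicate 2 gave 1 downregulated entry. At an unadjusted p under 0.05, 4 entries of the list were higher and 5 lower, among them Pnpla2, the adipose triglyceride lipase, higher (log2 FC 0.76), and Cideb lower (log2 FC -0.51). In bile acid conjugation and transport, Abcc3 and Abcc4 rose and Slco1a1 fell, 3 of 17 entries.

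In the unfolded protein and amino acid stress response, 3 of 19 entries were downregulated and 0 upregulated, and 8 were lower at an unadjusted p under 0.05 with a median log2 FC of -0.51. At that p, 532 of all 7389 entries were lower. Hspa5, the chaperone BiP of the endoplasmic reticulum, had 124, 85.1 and 69.7 FPKM in PF against 37.7, 42.8 and 44.5 FPKM in AF (log2 FC -1.16, adjusted p = 0.144, limma). Creld2, another protein of that compartment, had 20.3, 17.8 and 7.14 FPKM in PF against 3.67, 5.24 and 3.03 FPKM in AF (log2 FC -1.92, adjusted p = 0.205, limma), and Sdf2l1 a log2 FC of -1.18. Hspa5 and Creld2 did not overlap between the groups, and Sdf2l1 did. The count was between 1 and 4 with 1 library left out, the lowest without PF replicate 1.
Of 11 interferon-stimulated entries, 2 were downregulated, Ifit1 (4.11, 4.15 and 2.67 FPKM in PF against 1.64, 1.46 and 1.60 FPKM in AF, log2 FC -1.22) and Irgm2, an entry that merges Irgm2 and Igtp (log2 FC -1.10), both genes of cell-autonomous defence. Leaving out PF replicate 1 or AF replicate 3 gave 1 downregulated entry, and leaving out AF replicate 1 gave 3. In all, 7 of the 11 were lower at an unadjusted p under 0.05, against 532 of all 7389 entries. The median log2 FC of the list was -0.62. The acute phase list was set apart by PF replicate 1 and AF replicate 2, with a summed level of 21 fitted entries of 10616, 5028 and 5365 FPKM in PF against 7635, 12437 and 5659 FPKM in AF. Saa1, the serum amyloid A gene, had 184 FPKM in PF replicate 1 and 214 FPKM in AF replicate 2, against at most 5.43 FPKM in the other libraries. Hp, the haptoglobin gene, had 487 FPKM and 449 FPKM in these 2 libraries, against at most 99.0 FPKM in the others. Neither gene passed. In this list 3 of 20 entries were upregulated, and 2 or 3 with 1 library left out. These were Gm38051, the entry that holds Crp, the C-reactive protein gene (1.03, 1.74 and 0.96 FPKM in PF against 7.36, 4.92 and 2.97 FPKM in AF, log2 FC 2.03), Lbp, the lipopolysaccharide binding protein (25.5, 15.8 and 13.6 FPKM in PF against 42.0, 57.0 and 31.4 FPKM in AF, log2 FC 1.25), and Hamp, an entry that merges the hepcidin genes Hamp and Hamp2 (log2 FC 1.04, groups overlapping). Apcs was the 1 that fell, so that the 2 pentraxins of the list, Crp and Apcs, changed in opposite directions.

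The immediate early and acute stress list had 4 of 13 entries upregulated, with a median log2 FC of 0.88. Besides Mt1 and Mt2 these were Jun, an AP-1 subunit (0, 3.70 and 0 FPKM in PF against 5.73, 11.8 and 2.97 FPKM in AF, log2 FC 2.47), and Klf6, a zinc finger factor (2.24, 1.95 and 2.27 FPKM in PF against 3.47, 9.23 and 3.63 FPKM in AF, log2 FC 1.34). AF replicate 2 was the highest library in all 4, and in Jun the groups overlapped. Leaving out AF replicate 2 or PF replicate 3 gave a count of 2, and leaving out AF replicate 3 gave 6. Of 17 hepatokines and secreted regulators, 4 entries were upregulated. These were Lepr and Hamp and, in addition, Gdf15, a stress-induced cytokine (0.76, 0.57 and 0.72 FPKM in PF against 1.39, 7.18 and 2.12 FPKM in AF, log2 FC 2.38), and Selenop, the selenium carrier of plasma (606, 571 and 608 FPKM in PF against 1657, 1409 and 661 FPKM in AF, log2 FC 1.06). In Selenop, AF replicate 3 lay near the PF libraries. Leaving out PF replicate 2 gave 1 upregulated entry of that list, leaving out PF replicate 1, PF replicate 3 or AF replicate 1 gave 2, and the other libraries 3 and 5.

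In the urea cycle and amino acid catabolism list 3 of 40 entries were upregulated and 1 was downregulated, while 10 were higher and 1 lower at an unadjusted p under 0.05, with a median log2 FC of 0.29. At that p, 400 of all 7389 entries were higher and 532 lower. Tat, the tyrosine aminotransferase (115, 241 and 137 FPKM in PF against 387, 581 and 197 FPKM in AF, log2 FC 1.24), and the serine dehydratases Sdsl (1.28) and Sds (1.10) were the upregulated members. Csad, an enzyme of taurine synthesis, fell (16.3, 13.3 and 6.83 FPKM in PF against 5.19, 2.60 and 5.25 FPKM in AF, log2 FC -1.48). Leaving out AF replicate 3 gave 5 upregulated entries, and leaving out PF replicate 1 gave 1. Of 12 entries of ethanol and acetaldehyde oxidation, 1 was called, Adh4, an alcohol dehydrogenase with 109, 52.8 and 74.6 FPKM in PF against 20.1, 30.4 and 29.3 FPKM in AF (log2 FC -1.57, adjusted p = 0.127, limma), and 2 entries were downregulated without AF replicate 3. Of 18 clock entries 1 was downregulated, and the count was 0 without AF replicate 1 or AF replicate 2 and 4 without AF replicate 3. Of 20 hepatocyte transcription factors and nuclear receptors only Onecut1 was called in these libraries. In the gluconeogenesis and glycolysis list 0 of 19 entries were called and 0 had an unadjusted p under 0.05 (limma), and the same held for the 3 entries of the cell cycle list. Leaving out 1 library gave at most 1 entry in a direction in either list. Alas2, the heme synthesis enzyme of red cell precursors, was the called member of the erythroid markers, with 37.2, 43.3 and 41.4 FPKM in PF against 6.66, 18.2 and 8.71 FPKM in AF (log2 FC -1.86, adjusted p = 0.108, limma). The summed erythroid level was 332 to 450 FPKM in PF against 293 to 650 FPKM in AF, and these ranges overlapped.

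**Figure D3:**
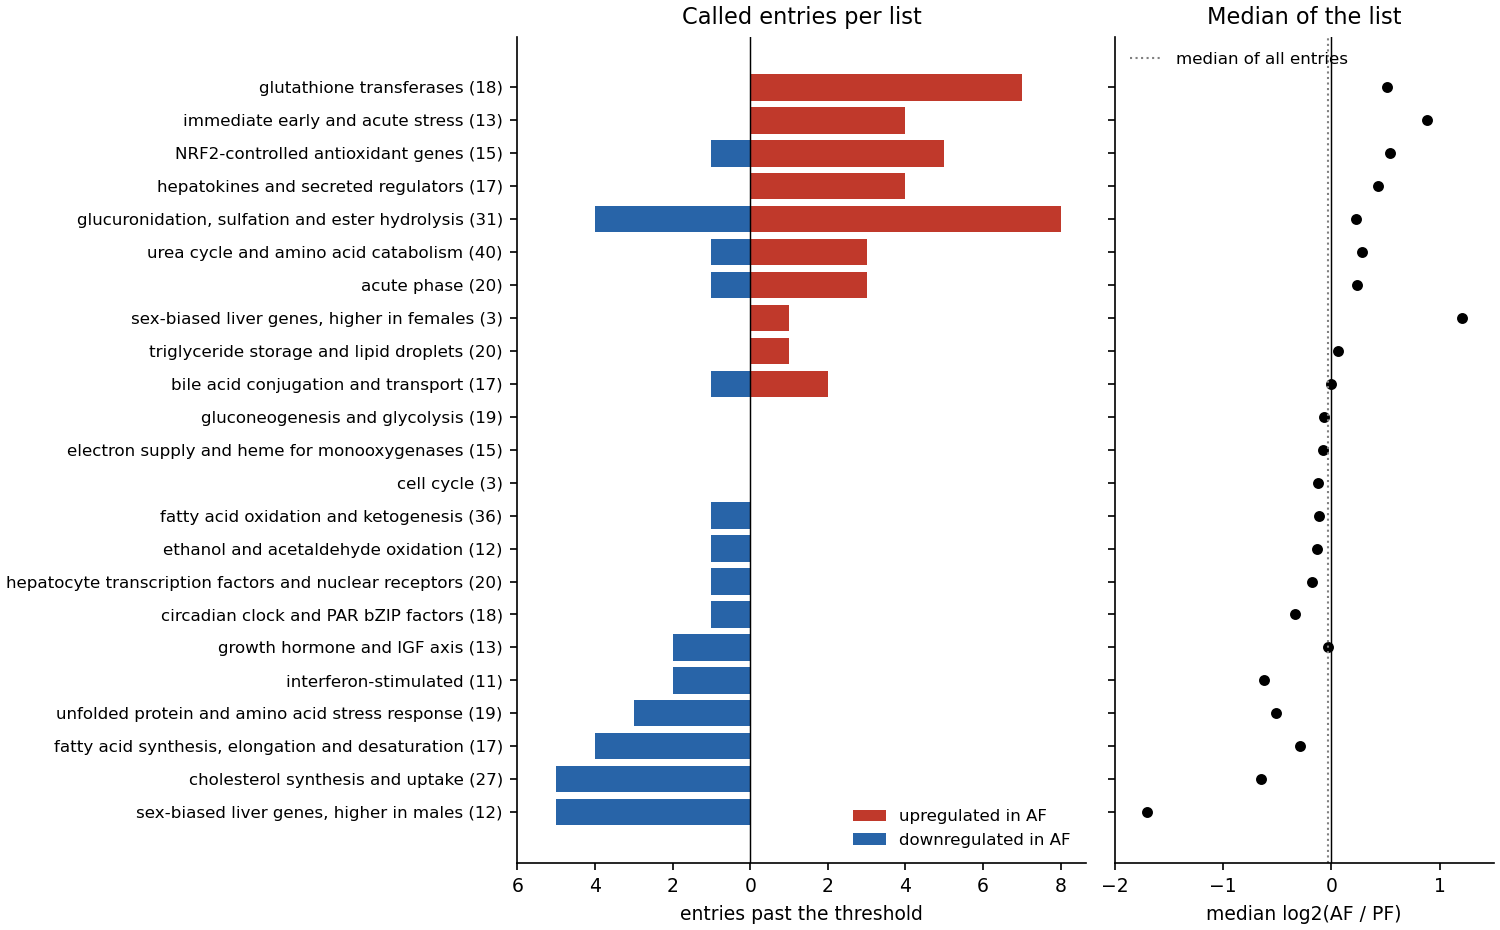
Number of upregulated (red, to the right) and downregulated (blue, to the left) entries in each of the 23 gene lists, with the number of entries present in brackets, and at the right the median log2 FC of each list with that of all entries as a dotted line. Glutathione transferases (7 up, 0 down) stand at one end and the genes higher in males (0 up, 5 down) and of cholesterol synthesis (0 up, 5 down) at the other.

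The table's KEGG column was filled for 2542 of the 7314 entries and its GO column for 5730. Of the 241 called entries, 84 had a KEGG term and 172 a GO term. At least 10 entries were present for 235 KEGG pathways, of which 148 held a called entry, 86 with more upregulated than downregulated entries, 42 with more downregulated and 20 with as many of each. The share of called entries was over 10% in 23 pathways. The 8 pathways with the highest share, which overlap in their genes, are described here. Metabolism of xenobiotics by cytochrome P450 had 8 of 29 entries called without its P450 genes (27.6%), 7 upregulated and 1 downregulated, drug metabolism by cytochrome P450 had 8 of 30 (26.7%), and chemical carcinogenesis 8 of 31 (25.8%). The same glutathione transferases, Gsta2, Gsta4, Gstm2, Gstm4 and Mgst3, were in all 3, and Adh4 was the downregulated entry they shared. Mineral absorption had 5 of 19 entries upregulated (26.3%), Mt1, Mt2, Slc39a4, Fth1 and Atp1b1, a subunit of the sodium pump (log2 FC 1.47). Tyrosine metabolism had 3 of 14 called, with Tat higher and Adh4 and Aox3 lower. Protein digestion and absorption had 3 of 14 called, Atp1b1 higher and the collagen chains Col5a3 and Col27a1 (log2 FC -1.66) lower. In bile secretion 3 of 34 entries were upregulated (Abcc3, Ephx1, Atp1b1) and 4 downregulated. The latter included Slco1a1, Slc10a2, the sodium-dependent bile acid carrier (log2 FC -1.89, groups overlapping), and Slc22a7, an organic anion carrier (log2 FC -1.16). Steroid biosynthesis had 2 of 11 entries downregulated, Nsdhl and Msmo1. Among these pathways, bile secretion had 2 downregulated entries without PF replicate 1 or AF replicate 1. Tyrosine metabolism had 0 upregulated without PF replicate 3, AF replicate 1 or AF replicate 2 and 3 without AF replicate 3, and protein digestion and absorption had 2 upregulated without AF replicate 3.

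Other pathways of the prepared list had a lower share of called entries. Glutathione metabolism had 5 of 30 upregulated, the glutathione transferases named above, and 1 downregulated without AF replicate 2 or AF replicate 3. In PPAR signaling 4 of 34 entries outside the P450 family were downregulated and 0 upregulated, among them Fabp5 (log2 FC -2.13), Fabp2 (-1.46) and Scp2, the sterol carrier and thiolase (132, 146 and 110 FPKM in PF against 51.5, 67.1 and 52.9 FPKM in AF, log2 FC -1.18, adjusted p = 0.0798, limma). Complement and coagulation cascades had 4 of 45 entries downregulated, Serpina1e, C6, C9 of the membrane attack complex (log2 FC -1.17) and the coagulation factor F11 (-1.02). The count was 2 when PF replicate 2 or AF replicate 1 was left out. Cysteine and methionine metabolism had 3 of 24 upregulated, 1 without PF replicate 1 or AF replicate 2 and 5 without AF replicate 3. Protein processing in endoplasmic reticulum had 3 of 113 called, a share of 2.65% below that of all entries, all downregulated, Hspa5, Hsp90aa1, a cytosolic chaperone (38.5, 31.8 and 27.6 FPKM in PF against 12.1, 16.8 and 15.1 FPKM in AF, log2 FC -1.16), and Eif2ak2, the kinase PKR (2.01-fold lower in AF). The count of that pathway was 1 without PF replicate 1 and 5 without PF replicate 3 or AF replicate 1. PPAR signaling gained 1 upregulated entry when PF replicate 1, PF replicate 3 or AF replicate 1 was left out. Arachidonic acid metabolism and linoleic acid metabolism, with 8 and 5 called entries in all, had 0 of 9 and 0 of 2 outside the P450 family, and retinol metabolism had 2 of 22 outside it against 13 of 42 with it.
Of the pathways without any called entry, the KEGG ribosome pathway had 103 entries (0 with an unadjusted p under 0.05 by limma), oxidative phosphorylation 87 (6), insulin signaling 79 (6), the lysosome 73 (13, of which 11 were higher in AF), the proteasome 36 (1), p53 signaling 29 (4), the citrate cycle 27 (1) and the pentose phosphate pathway 16 (2), where the numbers in brackets are those with an unadjusted p under 0.05. Such a p was found for 932 of all 7389 entries, 400 higher and 532 lower in AF. Terpenoid backbone biosynthesis, the first part of cholesterol synthesis, had 0 of 15 called and 4 with an unadjusted p under 0.05, all lower, with 2 downregulated without PF replicate 3 and 3 without AF replicate 3. With 1 library left out, at most 2 entries were called in oxidative phosphorylation, insulin signaling and p53 signaling, at most 1 in the ribosome pathway and the lysosome, and 0 in the proteasome, the citrate cycle and the pentose phosphate pathway. Of the 97 GO and KEGG terms of the prepared list, 73 held a called entry and 24 did not.

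Among 1453 GO terms with at least 10 entries, 704 held a called entry and 76 had a share over 10%. Glutathione transferase activity had the highest share, 6 of 15 (40%), all upregulated, with a median log2 FC of 0.55, the highest of all these GO terms. Glutathione binding had 3 of 10 and glutathione metabolic process 6 of 26 upregulated, the latter with Aldh5a1 and with Ethe1, a mitochondrial persulfide dioxygenase (log2 FC 1.23). Retinoid metabolic process had 3 of 11 called, among them Apoa4, an apolipoprotein of lipid absorption, higher (63.1, 71.6 and 47.3 FPKM in PF against 194, 89.9 and 107 FPKM in AF, log2 FC 1.10), and Adh4, lower. Cholesterol binding had 3 of 15, Apoa4 higher and Stard4 and Scp2 lower. Organic anion transmembrane transporter activity had Slco1a1 and Slc22a7 lower, 2 of 10, and 1 lower without PF replicate 1 or AF replicate 1. It gained 1 higher entry without AF replicate 2 or AF replicate 3. Deadenylation-dependent mRNA decay had 2 of 10, Zfp36l2 higher (log2 FC 1.55) and Cnot6l lower (log2 FC -1.20), of which 1 was left without PF replicate 2 or AF replicate 1. The oxidoreductase term for aldehyde or oxo donors had 3 of 16, Aldh5a1 and Htatip2 (log2 FC 1.15, groups overlapping) higher and Adh4 lower. In steroid metabolic process 1 of 41 entries was upregulated, Hsd11b1, the enzyme that regenerates active glucocorticoid (25.2, 24.8 and 33.5 FPKM in PF against 74.0, 48.0 and 56.7 FPKM in AF, log2 FC 1.10), and 5 were downregulated, among them Fdx1, the adrenodoxin electron carrier (log2 FC -1.26, adjusted p = 0.0651, limma). Without AF replicate 3 the downregulated entries of that term numbered 8. Sulfotransferase activity had 4 of 7 entries called, 1 higher and 3 lower. Of the larger terms, endoplasmic reticulum had 22 of 581 entries called (3.79%), mitochondrion 22 of 884 (2.49%), extracellular space 17 of 331 (5.14%), apoptotic process 9 of 247 (3.64%), metabolic process 10 of 212 (4.72%) and lipid metabolic process 13 of 206 (6.31%), against 3.3% of all entries. Without AF replicate 3 the 6 terms had 34, 34, 28, 13, 14 and 18 called entries, in the same order.
Response to ethanol had 1 of 48 entries called, Nqo1, response to oxidative stress 3 of 70 (Nqo1, Srxn1 and Tat, all higher, with 8 called without AF replicate 3, 6 without PF replicate 3 and 5 without PF replicate 2), inflammatory response 1 of 59, the chemokine Ccl9 (log2 FC 1.49), and defense response to virus 5 of 44, 2 higher and 3 lower. Fatty acid beta-oxidation had 0 of 26 (6 with an unadjusted p under 0.05 by limma) and ribosome 0 of 138 (3), and each had at most 1 called with a library left out. Leaving out 1 library gave 2 or 3 called entries for response to ethanol, 1 or 2 for inflammatory response and 2 to 6 for defense response to virus, the lowest of the last without AF replicate 2. In oxidation-reduction process 15 of 347 entries outside the P450 and Mup families were called, 8 higher and 7 lower, against 34 of 390 with those families. Without AF replicate 3 the 347 held 12 higher and 13 lower entries, and without AF replicate 1 they held 5 higher and 7 lower.

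**Figure D4:**
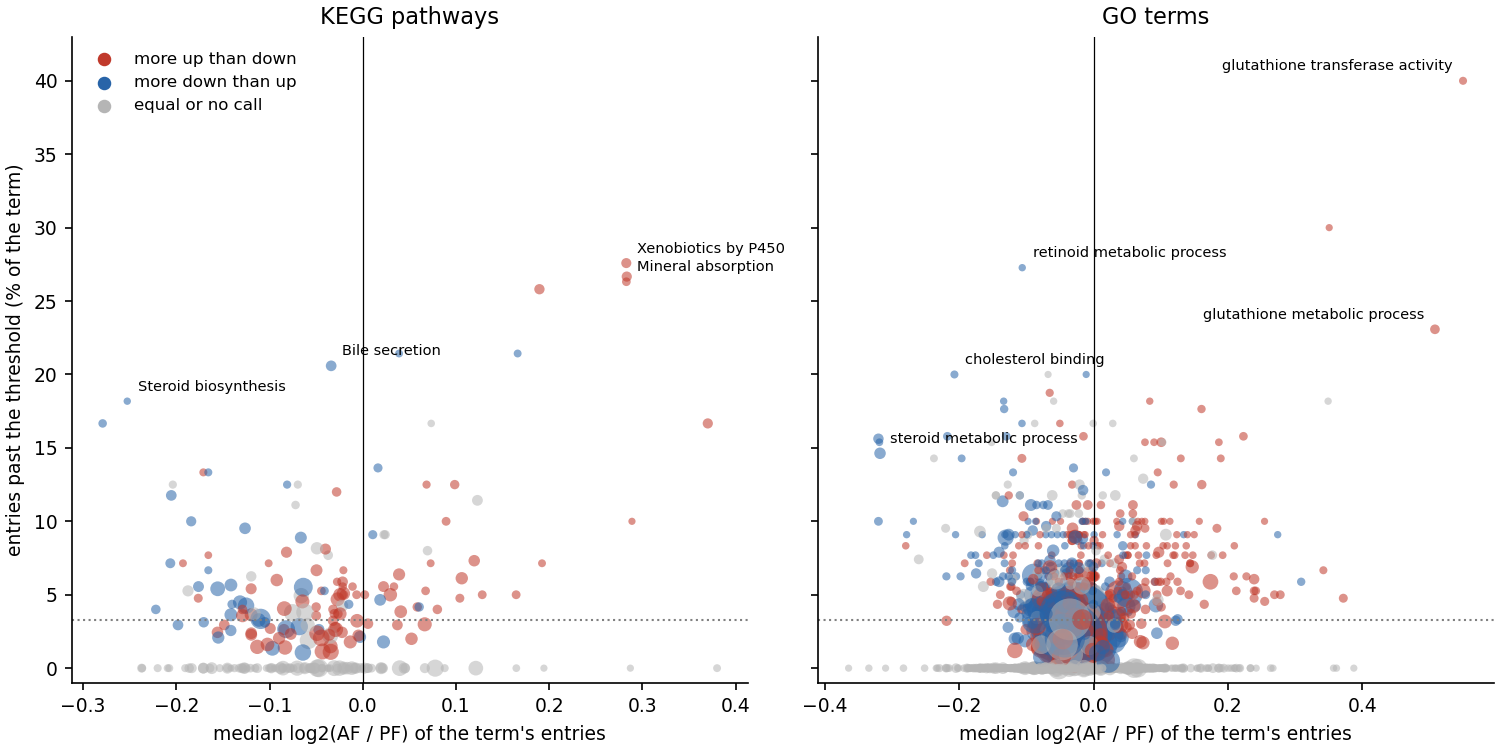
Share of called entries (vertical axis, percent) against the median log2 FC of the term (horizontal axis) for the 235 KEGG pathways (left) and 1453 GO terms (right) with at least 10 entries after the P450 and Mup genes were left out. Point area follows the number of entries, red marks terms with more upregulated and blue with more downregulated entries, the dotted line marks 3.3%, and the glutathione terms lie at the upper right.

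No GO term was given for 69 of the 241 called entries, and 38 of the 241 held no coding gene. Some coding entries without a place in the gene lists are given as examples, chosen after their values were seen. Mfsd4a, a membrane transporter, was upregulated from 0.62, 0.65 and 2.08 FPKM to 6.53, 7.19 and 6.86 FPKM (log2 FC 2.62, adjusted p = 0.0547, limma). Slc16a5, a monocarboxylate carrier (log2 FC 2.15), Trp53inp1, a p53-induced nuclear protein (log2 FC 1.88), and Gm5678, an entry that holds the carbonyl reductase gene Cbr1 (log2 FC 1.62), were upregulated too. On the downregulated side, Arrdc3, an arrestin-domain protein, had 17.7, 11.1 and 15.8 FPKM in PF against 3.55, 1.59 and 9.34 FPKM in AF (log2 FC -1.62). In Arrdc3, AF replicate 3 was the AF library nearest to the PF group. Cldn2, a claudin of tight junctions, had a log2 FC of -1.81 and Nudt7, a peroxisomal hydrolase of coenzyme A, one of -1.20.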

How the data were processed

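Livers of C57BL/6 mice of the PF and AF groups, 3 libraries each, were profiled by strand-specific RNA sequencing after depletion of ribosomal RNA. The deposited values are FPKM per gene entry, which the authors estimated with StringTie 1.3.4; per the labels, cutadapt 1.9, HISAT2, TopHat, FastQC and edgeR were also used, and the genome build was not given in the sources used here. Read counts per gene were not used here, so depth per gene is unknown; the deposited transcript coverage signal gave 6.16 to 7.24 units of coverage per FPKM in the 6 libraries. The table's entries can merge genes, and entries were matched to genes by transcript ID with GENCODE annotation of GRCm38.

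Entries with a known transcript, a name and a mean of at least 0.5 FPKM (12268) were fitted with limma 3.58.1 (R 4.3.3) on log2(FPKM + 1) with an intensity trend, and p-values were adjusted over all of them by the Benjamini-Hochberg method. Entries with a mean of at least 2 FPKM (7389) are described. The fit was tested on simulated data. Tables and figures were made with Python 3.11.15, pandas 2.3.3, numpy 2.4.6 and matplotlib 3.10.9. Named were the 15 largest rises and falls among called entries with no overlap between groups, all entries with an adjusted p under 0.05, and up to 4 called members of each list or term with the members central to it; further members were named after their values were seen. The members and the 23 gene lists, 9 marker lists and 99 terms (2 not found) were chosen with earlier results of these data known. Alternatives were the pseudocount, scaling, minimum level, trend, all 9 libraries of the series, fold measure, a library-size covariate, table entries, a replicate block and leaving out each library. Counts per gene list without each library and under the same-median scaling, counts per term without each library and the calls of single entries under these settings and the block were added after seeing the data. Same-numbered PF and AF libraries did not deviate together and were not treated as pairs. A few genes are not reported here.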

Additional observations from a re-analysis of the deposited data

How the results depend on the processing

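The count of 273 entries past the threshold stayed within 1.5 times under every alternative tried, from 183 with the library-size covariate to 385 without AF replicate 3 (157 upregulated and 228 downregulated), and from 267 to 385 with 1 library left out. The count of 36 entries with an adjusted p under 0.05 moved more. It was 22 with no minimum level in the fit, 65 with all 9 libraries (29 of them among the 36) and 0 with the library-size covariate and no moderation (linear model, 906 entries at an unadjusted p under 0.05). With 1 library left out it was between 21 and 43, the count being 23 without PF replicate 2, 21 without PF replicate 3 and 21 without AF replicate 1. With the replicate block it was 17, of which 16 were among the 36, and the count past the threshold was 289. Deviations of same-numbered libraries correlated at -0.080, 0.022 and 0.011, so the numbers were not taken to pair the samples. For the 37 entries with a fold change among the 15 largest rises and falls and those with an adjusted p under 0.05, 291 of 295 values kept their direction and side of the threshold and 0 changed direction. The other 4 were those of Cenpb without PF replicate 1, PF replicate 3, AF replicate 2 or AF replicate 3. Over all 241 called entries outside the P450 and Mup families, the call was kept by 229 with the same median in each library, by 230 with the replicate block and by 168 to 197 with 1 library left out. The causes were not tested. FPKM values give no counting error, so precision rests on 3 libraries a group.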
